A study of Saccharomyces cerevisiae with 2 samples.

Results

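The nuclear genes for the proteins of the mitochondrial small ribosomal subunit were measured in Saccharomyces cerevisiae, the budding yeast, given either 3% pyruvate or 2% glucose. The set was 31 genes taken by name, 9 with MRPS names, 11 with RSM names and 8 with MRP names together with PET123, NAM9 and SWS2. All 31 had values, out of 5598 named genes on the arrays. RNA of both conditions was hybridised on each of 2 arrays of 2 colours, with glucose in Cy5 on array 1 and pyruvate in Cy5 on array 2. The labels give neither strain, growth phase nor time of harvest, and leave unsaid whether each array had RNA of its own culture. P-values therefore cover the variation from array to array alone, and that may be technical. Each value is a log2 ratio of pyruvate over glucose, and a mean is given ± SD with n = 2.

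No source states the direction of the ratios, and the one used here is only likely. It takes the deposited ratio as Cy5 over Cy3, which is the usual order and the order in which the labels list the channels, and the ratio of array 1 was multiplied by -1. With the opposite order every sign below would turn. The median of all 5598 genes stood at 0.18 on array 1 and 0.02 on array 2, and at 0.10 as a mean of both, so values are to be read against that level. Total RNA of whole cultures was measured, so a larger share of cells with a transcript and more transcript per cell cannot be told apart. The table holds ratios without signals, so levels of different genes could not be compared, and the number of arrays limits the precision.

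The mitochondrial ribosome translates the few mRNAs of the mitochondrial genome, most of which encode subunits of the respiratory chain and the ATP synthase. Its small subunit binds the mRNA and reads the codons, and its large subunit joins the amino acids. In yeast a single protein of the small subunit, Var1, is encoded in the mitochondrial genome, and the others are made in the cytosol and imported. Many of them have a counterpart in the bacterial ribosome, named with uS or bS in the common naming of ribosomal proteins, and others are found in mitochondria and named with mS. Yeast that ferments glucose can grow without this ribosome, whereas growth on pyruvate needs respiration.

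Ratios were above 0, thus higher in pyruvate, for 31 of 31 small subunit genes on array 1 and for 31 of 31 on array 2. Of all 5598 genes, 3317 were above 0 on array 1 and 2883 on array 2. By limma with Benjamini-Hochberg adjustment over all 5598 genes, 30 of 31 rose, 0 fell and 1, MRP10, did not pass at an adjusted p under 0.05, whereas 27.1% of all genes were called higher and 17.2% lower. The median of the 31 genes was 1.205, or 2.31-fold, against 0.10 for all genes. Their means ran from 0.56 in RSM22 to 1.83 in MRPS17, and 19 of 31 were at least 2-fold higher on both arrays, as were 12.7% of all genes. The adjusted p of the 30 genes lay between 0.0124 and 0.0434. These calls rest on limma's moderation, since without it 0 of 31 passed and 22 of 31 had an unadjusted p under 0.05. Of all 5598 genes, 10 passed without it.

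The increases were moderate in size. Of all genes, 284 (5.07%) had a mean ratio above MRPS17, the highest of the set, and 72.7% lay below RSM22, the lowest. The median small subunit gene lay above 89% of all genes.

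**Figure D1:**
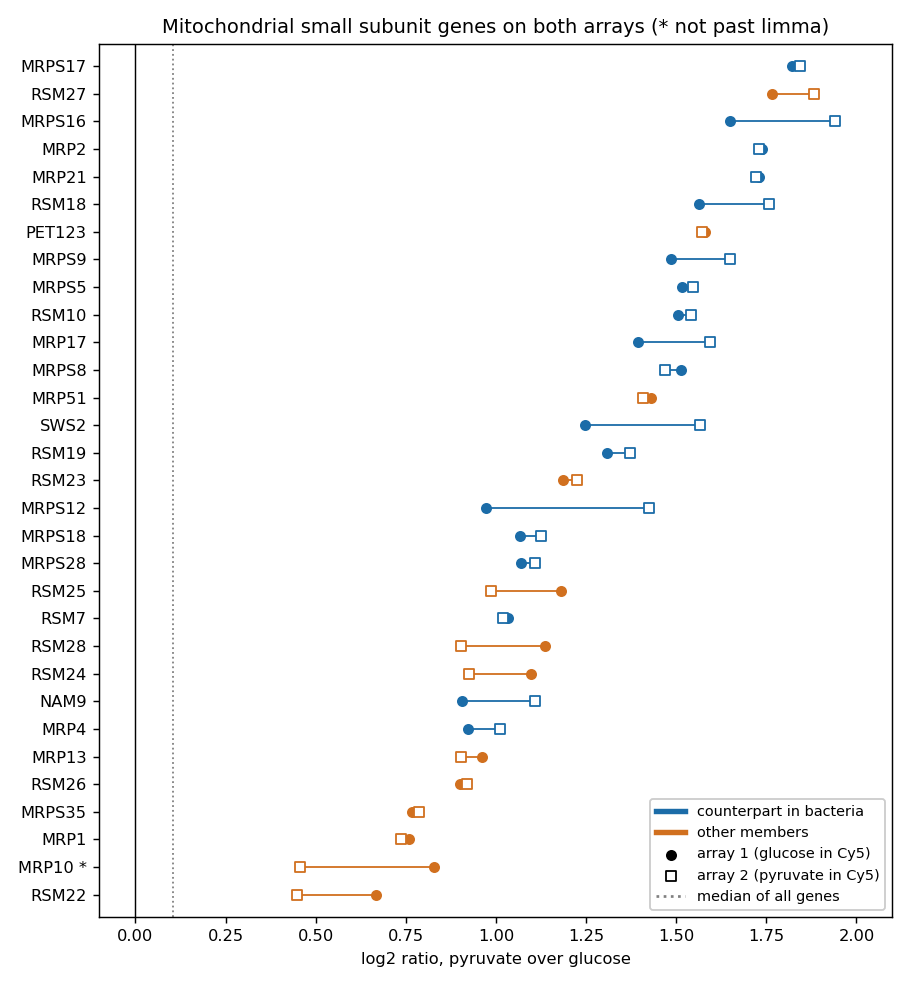
Log2 ratios of pyruvate over glucose for the 31 small subunit genes, ordered by mean, with array 1 as filled circles and array 2 as open squares joined by a line, and the median of all genes as a dotted line. Every point lies above 0. Blue genes have a counterpart in the bacterial small subunit and orange genes are the other members, which fill 8 of the 10 lowest places.

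MRPS17 (uS17), a protein of the body of the subunit, had ratios of 1.82 on array 1 and 1.84 on array 2, a mean of 1.83 ± 0.01 or 3.56-fold, with a limma adjusted p of 0.0124. MRPS16 (bS16), another protein of the body, stood at 1.65 and 1.94, with a mean of 1.80 ± 0.21. MRPS5 (uS5), whose bacterial counterpart lines the path of the mRNA, stood at 1.52 and 1.55 (1.53 ± 0.02). These body proteins were each over 2.8-fold higher in pyruvate on average. MRPS12 (uS12), the counterpart of the bacterial protein at the decoding centre, differed more between the arrays, at 0.97 and 1.42 (1.20 ± 0.32), and passed with a limma adjusted p of 0.0259. NAM9 (uS4), first found through suppression of nonsense mutations in mitochondrial genes, stood lowest of the body proteins at 0.91 and 1.11 (1.01 ± 0.14). The gap between the arrays in MRPS12, 0.45, was the largest of the 31 genes, and it was present in both of its features, which read 0.92 and 1.02 on array 1 and 1.44 and 1.41 on array 2.

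Genes for the platform covered a similar range. MRP21 (bS21), known from suppressors of mutations in the leaders of mitochondrial mRNAs, stood at 1.73 and 1.72, a mean of 1.73 ± 0.01 or 3.31-fold. RSM18 (bS18) stood at 1.56 and 1.76 (1.66 ± 0.14). MRP17 (bS6), the partner of bS18 in the bacterial platform, stood at 1.39 and 1.59 (1.49 ± 0.14). Both members of that pair were thus higher on array 2 than on array 1. MRPS8 (uS8), which in bacteria binds the centre of the small ribosomal RNA, stood at 1.51 and 1.47 (1.49 ± 0.03). MRPS18 (uS11) and MRPS28 (uS15) were the lowest of this region, with 1.07 and 1.13 for MRPS18 (1.10 ± 0.04) and 1.07 and 1.11 for MRPS28 (1.09 ± 0.03). They differed from one another by less than their SD between arrays.

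In the head, which holds the transfer RNAs from above, MRP2 (uS14) stood at 1.74 and 1.73, a mean of 1.74 ± 0.01 or 3.33-fold. MRPS9 (uS9), whose bacterial counterpart reaches the transfer RNA in the peptidyl site, stood at 1.49 and 1.65 (1.57 ± 0.11). RSM10 (uS10) stood at 1.505 and 1.54 (1.52 ± 0.02). SWS2 (uS13), at the contact of the head with the large subunit in bacteria, stood at 1.25 and 1.57 (1.41 ± 0.23), and RSM19 (uS19), its neighbour there, at 1.31 and 1.37 (1.34 ± 0.05). RSM7 (uS7), which in bacteria starts the assembly of the head, had the lowest ratios of these, 1.03 and 1.02 (1.03 ± 0.01), but its arrays differed little and it was at least 2-fold higher on both. MRP4 (uS2), which lies between head and body, stood at 0.92 and 1.01 (0.97 ± 0.06). Medians by region were 1.53 for 5 body genes, 1.49 for 6 platform genes and 1.46 for 6 head genes, closer together than the genes within any region.

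The 13 other members, which were not counted here among the bacterial families, were more often low in the order. RSM27 (mS33) stood highest among them, with 1.765 and 1.88, a mean of 1.82 ± 0.08 or 3.54-fold and a limma adjusted p of 0.0126. PET123 (mS26), named for the petite phenotype of its mutants, stood at 1.58 and 1.57 (1.58 ± 0.005), and MRP51, known like MRP21 from suppressors in mRNA leaders, at 1.43 and 1.41 (1.42 ± 0.01). RSM23 (mS29), the counterpart of the human protein DAP3, stood at 1.185 and 1.225, with a mean of 1.205 ± 0.03, and was the median gene of the 31. These 4 genes were the members of this class that were at least 2-fold higher on both arrays.

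Around a 2-fold change lay RSM25 (mS23) with 1.18 and 0.99 (1.08 ± 0.14), RSM28 (mS46), known from a suppressor of a defect in COX2 translation, with 1.14 and 0.90 (1.02 ± 0.17), and RSM24 (mS35) with 1.10 and 0.92 (1.01 ± 0.12). Each of these was at least 2-fold higher on array 1 but not on array 2. MRP13 (mS44) stood at 0.96 and 0.90 (0.93 ± 0.04), and MRPS35 (mS45) at 0.77 and 0.79 (0.78 ± 0.01). Both passed although they were under 2-fold on both arrays.

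RSM26 (mS42) and MRP1 (mS43) encode proteins related to superoxide dismutases of the iron and manganese type. RSM26 stood at 0.90 and 0.92, a mean of 0.91 ± 0.01 or 1.88-fold, and MRP1 at 0.76 and 0.74, a mean of 0.75 ± 0.01 or 1.68-fold, with limma adjusted p of 0.0167 and 0.0205. This related pair was among the 5 lowest of the 31 genes, and RSM26 was the higher of them on both arrays.

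MRP10 (mS37), a small protein with the paired cysteine motifs of proteins of the intermembrane space, stood at 0.83 on array 1 and 0.46 on array 2. Its mean of 0.64 ± 0.26 (1.56-fold) did not pass, with a limma adjusted p of 0.0543. Its features differed by 0.013 on array 1 and 0.032 on array 2, much less than the arrays did. RSM22, which resembles methyltransferases, was the lowest, with 0.67 and 0.45, a mean of 0.56 ± 0.16 or 1.47-fold, and a limma adjusted p of 0.0434. Which of these lowest genes passes depends on the scaling: with each array centred on its median MRP10 passed (adjusted p of 0.0333) and RSM22 did not (adjusted p of 0.0522).

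The 18 genes with a bacterial counterpart had a median of 1.49 (2.81-fold) and the 13 others one of 1.01 (2.01-fold), a difference of 0.34 between the medians on array 1 and 0.62 on array 2. This difference was not tested, since genes are not replicates. All 18 genes of the first class rose, and 15 were at least 2-fold higher on both arrays, whereas of the 13 others 12 rose and 4 were at least 2-fold higher on both arrays. Of all genes 27.1% were called higher. At least 2-fold on both arrays were 83.3% and 30.8% of the classes, both above the 12.7% of all genes. The 10 highest genes held 8 with a counterpart and 2 others, and the 10 lowest held 2 with a counterpart and 8 others. The ranges overlapped: 1 gene with a counterpart lay above RSM27, and 6 others lay below MRP4, the lowest gene with a counterpart. In the common naming MRP51 is also set beside the bacterial bS1, and counting it with the counterparts gave medians of 1.49 for 19 genes and 0.97 for 12. The split between the arrays was counted by class, without a test, and array 2 gave the higher ratio in 14 of 18 genes with a counterpart and in 4 of 13 others. With each array centred on its median over all genes, these counts were 18 of 18 and 8 of 13. Centring lowers array 1 by 0.18 and array 2 by 0.02, which moves every gene towards array 2. Over all genes the lean, array 2 minus array 1 divided by 2, had a median of -0.0145 before centring. At least as many genes thus leaned to array 1 as to array 2 before centring. After centring, most of all genes also count as higher on array 2. The share of all genes was not counted in either case, so the counts by class cannot be read as a trait of a class. With 1 array for each order of the dyes, a dye and any other difference between the arrays cannot be told apart.

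Spread among the members was larger than the spread between the arrays. The SD of the mean ratio between the 31 genes was 0.37, against an SD between arrays of 0.12 pooled over them. The median gap between the arrays was 0.06, and 18 of 31 genes had a gap under 0.1. Of the 465 pairs of members, 407 (87.5%) had the same order on both arrays, and Spearman's rho between the arrays was 0.91 across the 31 genes, given as a description since the genes share the same RNA and arrays. By the pooled SD neighbours in the order were not separated, as 0 of 30 neighbouring pairs differed by over 2 pooled SDs. The pooled SD exceeds that of single genes such as RSM26 and MRPS35, each with an SD of 0.01. These 2 neighbours kept their order on both arrays. MRPS17 and RSM22, the ends of the order, differed by 1.15 on array 1 and 1.40 on array 2. With 2 arrays an exact sign test between any 2 genes cannot go below a two-sided p of 0.5, so the order is a description.

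Features of the same gene gave close values. Of the 31 genes 20 were read by 2 features and 11 by 1, and the largest difference between features of a gene on an array was 0.133, in MRP17 on array 2. The median over the 20 genes was 0.0305 on array 1 and 0.04 on array 2. Features share RNA and array, so they are no replicates.

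**Figure D2:**
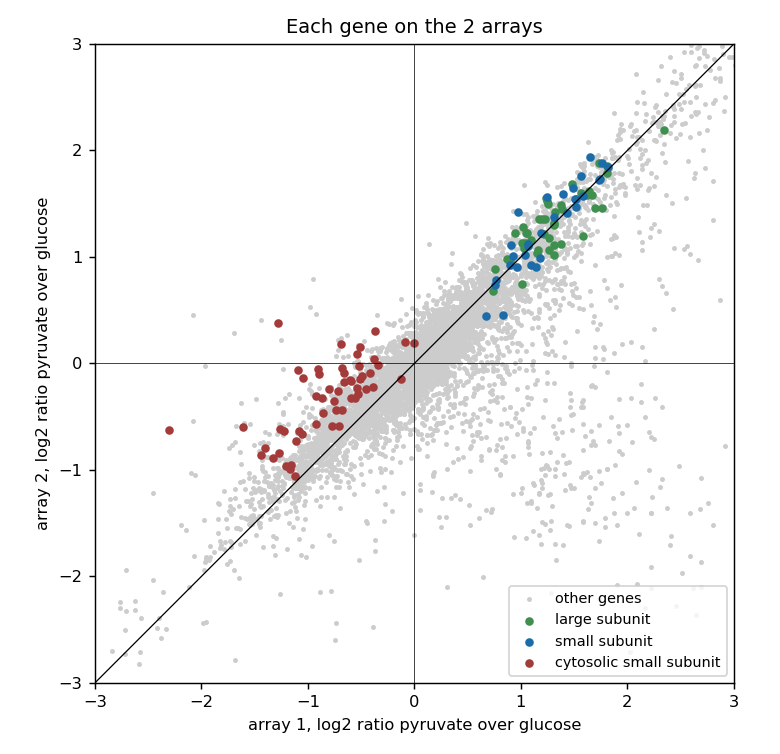
Log2 ratios of pyruvate over glucose on array 1 (horizontal) and array 2 (vertical) for each gene, with the line of equal values. Small subunit genes (blue) lie in the upper right among the large subunit genes (green), cytosolic small subunit genes (red) lie mostly at lower left, and 132 of the 5598 genes fall outside the axes.

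The other proteins assigned to the small subunit moved the same way. EHD3, a hydrolase of valine breakdown that was found in the mitochondrial ribosome as mS47, stood at 1.455 and 1.4485 (1.45 ± 0.005). FYV4 (mS41) stood at 1.61 and 1.71 (1.66 ± 0.07), and QRI5 (mS38) at 1.20 and 1.48 (1.34 ± 0.20). All 3 measured genes rose, beside 27.1% of all genes, with limma adjusted p of 0.0127 to 0.0165. VAR1 is not analysed here.

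All 45 genes for proteins of the large subunit rose, beside 27.1% of all genes, with a median of 1.275 (2.42-fold). RML2 (uL2), at the lower end, stood at 0.74 and 0.68 (0.71 ± 0.04), and MRPL25 (mL59) at the upper end stood at 2.35 and 2.19 (2.27 ± 0.11). The median of the 31 small subunit genes was lower by 0.07, a difference that was not tested, and on array 2 alone the small subunit median, 1.373, was the higher, against 1.298. Of the 45 genes 44 lay within the range of the small subunit genes and 1, MRPL25, above it. At least 2-fold on both arrays were 39 of 45 large subunit and 19 of 31 small subunit genes, beside 12.7% of all genes, a difference that was not tested.

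Of 9 genes for factors of mitochondrial translation, 8 rose and 0 fell, beside 27.1% and 17.2% of all genes. Their median was 1.105. The highest, MEF2, which acts in ribosome recycling, stood at 1.62 and 1.47 (1.54 ± 0.10), and the lowest, GUF1, a GTPase related to the bacterial factor LepA, at 0.754 and 0.751 (0.75 ± 0.002). The remaining gene, named after its values were seen, was FMT1, the formyltransferase of the initiator transfer RNA, which did not pass with 2.17 on array 1 and 0.02 on array 2. Of 9 genes for mitochondrial transcription, ribosomal RNA and ribosome assembly, 6 rose and 0 fell, beside 27.1% and 17.2% of all genes. The other 3 missed the threshold. The median was 0.51. MRM2, a methyltransferase of the large ribosomal RNA, stood at 1.06 and 0.99 (1.03 ± 0.05), and MTG2, an assembly GTPase, at 0.32 and 0.04 (0.18 ± 0.19) did not pass. Of these 9 genes, 0 were at least 2-fold higher on both arrays, beside 12.7% of all genes, a count without a test.

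**Figure D3:**
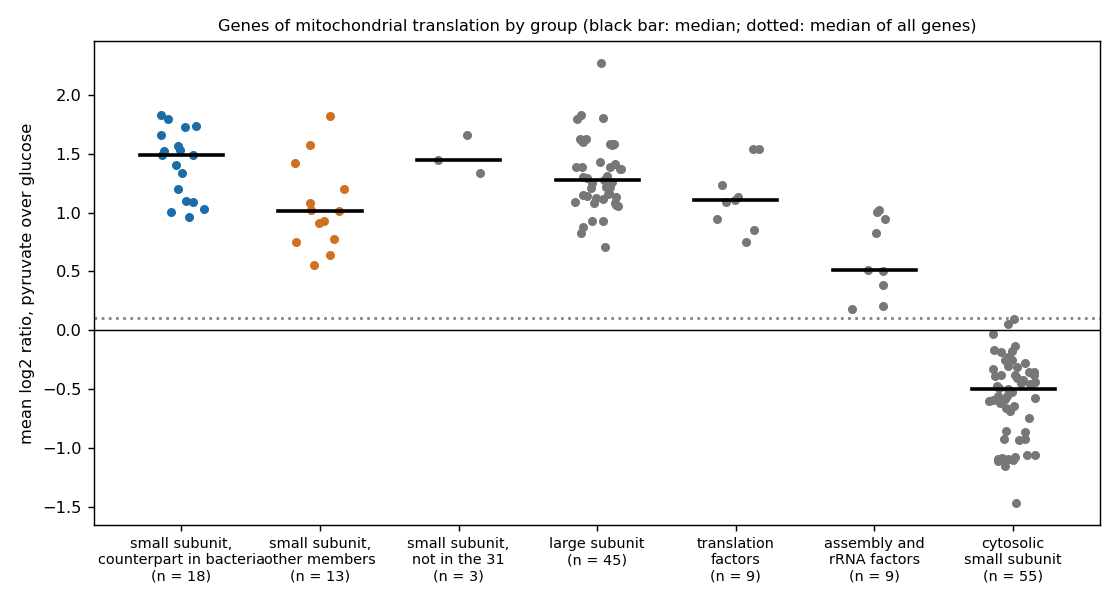
Mean log2 ratio of pyruvate over glucose for each gene, by group, with a black bar at the median and a dotted line at the median of all genes. Medians run from 1.49 in small subunit genes with a bacterial counterpart through 1.01 in the other members to 0.51 in assembly and rRNA factors and -0.50 in cytosolic small subunit genes.

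Among genes for the small subunit of the cytosolic ribosome, most did not pass. Of 55 such genes, 15 (27.3%) fell and 0 rose, beside 17.2% and 27.1% of all genes, while 40 missed the threshold. The median was -0.50 (-0.74 on array 1 and -0.26 on array 2). The highest, RPS30A, stood at -0.01 and 0.20 (0.09 ± 0.14), and the lowest, RPS2, at -2.31 and -0.63 (-1.47 ± 1.19), and neither passed. By mean ratio the lowest mitochondrial small subunit gene, RSM22, lay above 72.7% of all genes, and RPS30A above 49.5%. The 2 sets thus did not overlap by mean ratio. On array 2 alone the margin was small, with 0.45 in RSM22 against 0.38 in RPS31. Many cytosolic genes come as near-identical pairs whose probes can bind both copies, so their single values are uncertain.

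Small subunit genes were also set beside the adjacent upstream gene where it is transcribed in the opposite direction, a comparison chosen after the values were seen. The distance between the genes of a pair was not measured. In the order of genes in assembly R64, 18 of the 31 had such a divergent neighbour with values. Of these neighbours 3 rose, 3 fell and 12 did not pass, so 16.7% were called higher and 16.7% lower, beside 27.1% and 17.2% of all genes, and their median was -0.10. With the opposite order of the channels these shares would change places, and those called higher would be 16.7% beside 17.2%. None of the 18 neighbours encodes a mitochondrial ribosomal protein. The neighbours that rose were AIM36 beside MRPS8 (1.68 ± 0.07), AIM25 beside RSM26 (1.25 ± 0.19) and DID4 beside MRP17 (0.42 ± 0.05), and the first 2 were higher than their small subunit gene. The neighbours that fell were RRP12 beside MRPS16 (-1.44 ± 0.01), MAP2 beside MRP21 (-0.72 ± 0.14) and SVF1 beside MRP1 (-0.70 ± 0.15). RRP12 acts in assembly of the cytosolic ribosome, and its ratio and that of MRPS16 stood on opposite sides of 0 by over 1.4 each. AIM36 and AIM25 are genes found through altered inheritance of mitochondria. Spearman's rho between member and neighbour was -0.04 across the 18 pairs, as a description.

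**Figure D4:**
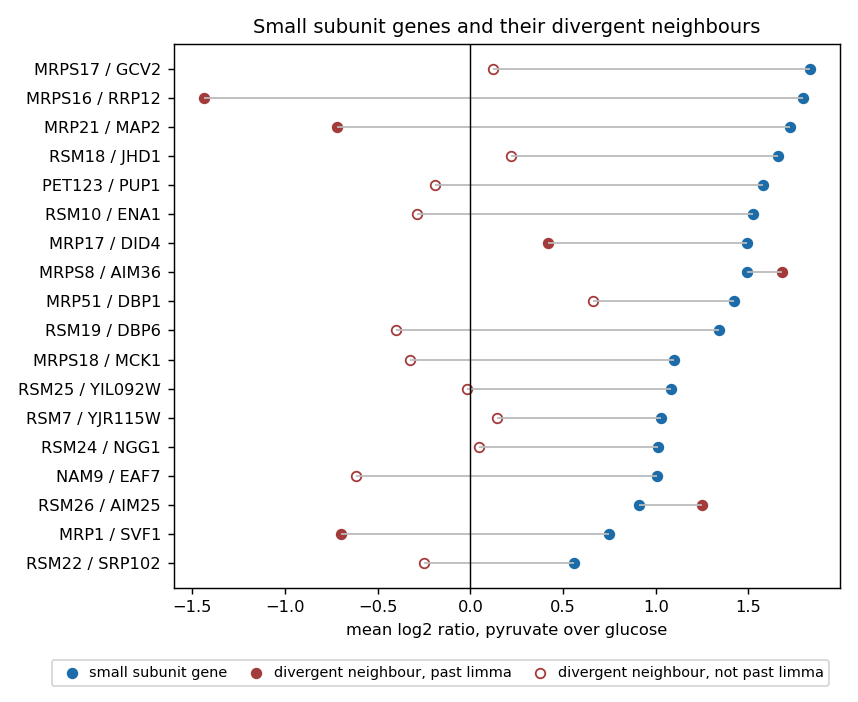
Mean log2 ratios of pyruvate over glucose for 18 small subunit genes (blue) and for the neighbour transcribed away from each (red, filled where it passed limma), ordered by the small subunit gene. Apart from AIM36 and AIM25, each neighbour lies to the left of its small subunit gene.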

How the data were processed

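The authors' deposited table holds, for 10807 features on each of 2 arrays, a log2 ratio of the channels, with 10 and 6 values missing. Amplification and labelling of the total RNA used an Agilent kit, per the labels. For scanner, background correction, scaling and channel order, the method is not given in the sources used here. Base 2 was inferred from the values: 935 and 784 features lay at log2 of ratios of whole numbers up to 10. The latter count was taken after subtracting 0.008, and these features were read as dim. Over all the constants tried for subtraction the median counts were 136 and 142, so some of these features may match without being dim. The ratio of array 1 was multiplied by -1. The deposited columns correlated at -0.81 over features of named genes, 0.86 over unnamed ones and 0.157 over all. Over features of named genes, the ones analysed, the columns thus ran in opposite directions. Over all features the correlation does not settle the turn, which follows the dyes in the labels.

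The platform's annotation named 1 gene for 9202 features, several for 0 and none for 1605, and 9194 were matched by gene ID to RefSeq names of assembly R64, which gave 5598 genes after averaging features. Tests used limma 3.58.1 in R 4.3.3 (lmFit, then eBayes, with 1 residual and 1.67 prior degrees of freedom on a single coefficient), adjusted over all genes, at a threshold of 0.05. The steps were tested on data simulated from the fitted prior, which checks the code and says little about the calls made here. No dye term was fitted, since it would use the last residual degree of freedom. Groups of genes are given by counts and medians without a test. Python 3.11.15, pandas 2.3.3 and matplotlib 3.10.9 were used for tables and figures.

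The members, the lists and the classes were chosen with earlier results of these data known. By the rule for names the text gives all 31 members, every gene of a list of 5 or fewer, and the highest and lowest gene of each other list. Other genes named were chosen after their values were seen. Alternatives were centring, scaling, other moderation and thresholds, other summaries of features, leaving out dim features, the opposite channel order and single arrays. Sequences were not analysed here.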

Additional observations from a re-analysis of the deposited data

How the results depend on the processing

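With each array centred on its median, and with the arrays also scaled alike, 30 of 31 genes rose, with medians of 1.10 and 1.12. Under these 2 settings 24.9% and 22.6% of all genes were called higher. In both, MRP10 passed and RSM22 did not. Robust moderation, medians over features and the first feature of each gene gave 30 genes, and leaving out dim features gave 31. The shares of all genes called higher were 27.2%, 27.1%, 26.4% and 30.8% in that order. The count of members that rose was 18 against a 1.5-fold minimum change, 0 without moderation and 0 at an adjusted p under 0.01. Of all 5598 genes, 10.2% were called higher against the 1.5-fold minimum. Without moderation only 10 of all genes were called in either direction, so 0 members there says little about the set. At an adjusted p under 0.01 limma called 0 of all 5598 genes, and 31 of 31 members had an unadjusted p under 0.05. The calls thus depend on the moderation with 2 arrays, and the other threshold shows only that no adjusted p reached it. From a single array, a value with no test, the median was 1.185 (array 1) or 1.373 (array 2), and every member kept its direction. The count could not be repeated that way, as 1 array leaves no residual degree of freedom. The ratio within an array already pairs the conditions, so no further fit with a block was made. Signals over background are absent from the ratios, so what dim signal limits could not be measured.

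With the opposite order of the channels 30 members would fall, 0 would rise, and the median would be -1.205. The mean ratios would be -1.83 in MRPS17, -1.82 in RSM27, -1.80 in MRPS16, -1.74 in MRP2, -1.73 in MRP21, -1.66 in RSM18, -1.58 in PET123, -1.57 in MRPS9, -1.53 in MRPS5, -1.52 in RSM10, -1.49 in MRP17, -1.49 in MRPS8, -1.42 in MRP51, -1.41 in SWS2, -1.34 in RSM19, -1.21 in RSM23, -1.20 in MRPS12, -1.10 in MRPS18, -1.09 in MRPS28, -1.08 in RSM25, -1.03 in RSM7, -1.02 in RSM28, -1.01 in RSM24, -1.01 in NAM9, -0.97 in MRP4, -0.93 in MRP13, -0.91 in RSM26, -0.78 in MRPS35, -0.75 in MRP1, -0.64 in MRP10 and -0.56 in RSM22.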
